A study of Arabidopsis thaliana with 4 samples.

Results

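The genes described are the 48 nuclear genes for the light-harvesting antennae (6 LHCA and 15 LHCB genes), the nuclear-encoded subunits of photosystem I (12 PSA genes) and photosystem II (11 PSB genes), and the small subunit of Rubisco (4 RBCS genes). They were taken by their locus identifiers, and not by a cut on measured values, from the 27206 loci for which expression was deposited. The set was, however, chosen with earlier results of these data known. Values of the gene models of a locus were summed. All 48 passed the low-value requirement of a mean of at least 1 RPKM, as did 19044 loci in all. RPKM is a read number divided by the exon length and by the reads of the library, so levels can be compared between genes. The RNA-Seq experiment compared wild-type *Arabidopsis thaliana* of the Columbia ecotype with homozygous *stk* mutant plants (*stk*-/-). *STK* (*SEEDSTICK*) encodes a MADS-domain transcription factor of ovules and seeds, and the study's methods describe an insertion near a splice site in its allele, *stk-2*. Both groups shared growth temperature and tissue, which was a pool of whole inflorescences and of siliques up to 5 days after pollination, and each had 2 biological replicates. The labels name both short and long days for growth, without saying which plants had which.

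Photosynthesis starts when antenna proteins that bind chlorophyll pass light energy to the reaction centres of photosystem II, which oxidises water, and photosystem I, which reduces ferredoxin. The chlorophyll-binding core proteins of both photosystems and the large Rubisco subunit are encoded in the plastid genome, whereas the antenna proteins, many peripheral subunits and the small Rubisco subunit are encoded in the nucleus and imported. In flowers and young fruits these genes are known to be active mainly in green tissue such as sepals and the silique wall. The libraries came from bulk tissue, so more green cells and more RNA per green cell cannot be told apart. Plastid-encoded genes are not analysed here.

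The RPKM values correspond to between 16965995 and 33673020 reads per library, as estimated from the spacing of low values, with 1.69 times as many reads in the *stk* as in the wild-type libraries. The least expressed member, *LHCB7*, had 97 estimated reads in the shallowest library, and *RBCS1A* had 337740 in the deepest. *STK* itself stood at 38.7 and 40.9 RPKM in wild type against 7.91 and 7.96 RPKM in the mutant (log2 fold change -2.19 ± 0.13, SE; adjusted p = 0.0884), so that reads of the gene were still present in both mutant libraries. Here and throughout, each pair of values gives replicates 1 and 2 in that order. In the column headers, *stk* replicate 1 carries sequencing lane 7 and the other 3 libraries carry lane 1. The series design, however, speaks of 1 lane, so the lane of this library is not certain. *stk* replicate 1 had higher levels than *stk* replicate 2 for 73.9% of the loci tested, most of all for short transcripts. A comparison without *stk* replicate 1 is therefore, by the headers, the comparison within lane 1, and is so named below. It was more than 1.5 times smaller or of opposite sign for 28 of the 48 members, 9 of them PSA and 9 PSB genes. The same held for 5186 of the 7659 tested loci with a positive log2 fold change, so it is not particular to the members. The value of this comparison is given beside the genes named. Markers of floral organs, siliques, tapetum, pollen and seed coat were detected in every library. Of the 4 root markers, *EXPA7* and *CASP1* were at 0 in all 4 libraries and *MYB36* reached at most 0.075 RPKM. The root marker *COBL9* was detected in every library, at 3.51 and 2.12 RPKM in wild type against 2.15 and 1.45 RPKM in *stk*.

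The 48 genes took a larger share of the *stk* than of the wild-type libraries. Together they held 9.72% and 10.4% of the summed RPKM of the wild-type libraries and 11.8% and 12.6% of the *stk* libraries. Every member had a positive log2 fold change, as did 40.2% of the loci tested, except that under quantile normalization 43 members were positive. Without *stk* replicate 1, 47 members and 29.2% of loci were positive. The median log2 fold change (mutant minus wild type, on the log2(RPKM + 1) scale) was 0.35 over the members and -0.05 over all loci tested. In 44 of the 48 genes the levels of both mutant libraries exceeded those of both wild-type libraries, a pattern found in 16.3% of loci. Taken alone, *stk* replicate 2 exceeded both wild-type libraries in 45 genes and in 19.1% of loci.

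**Figure D1:**
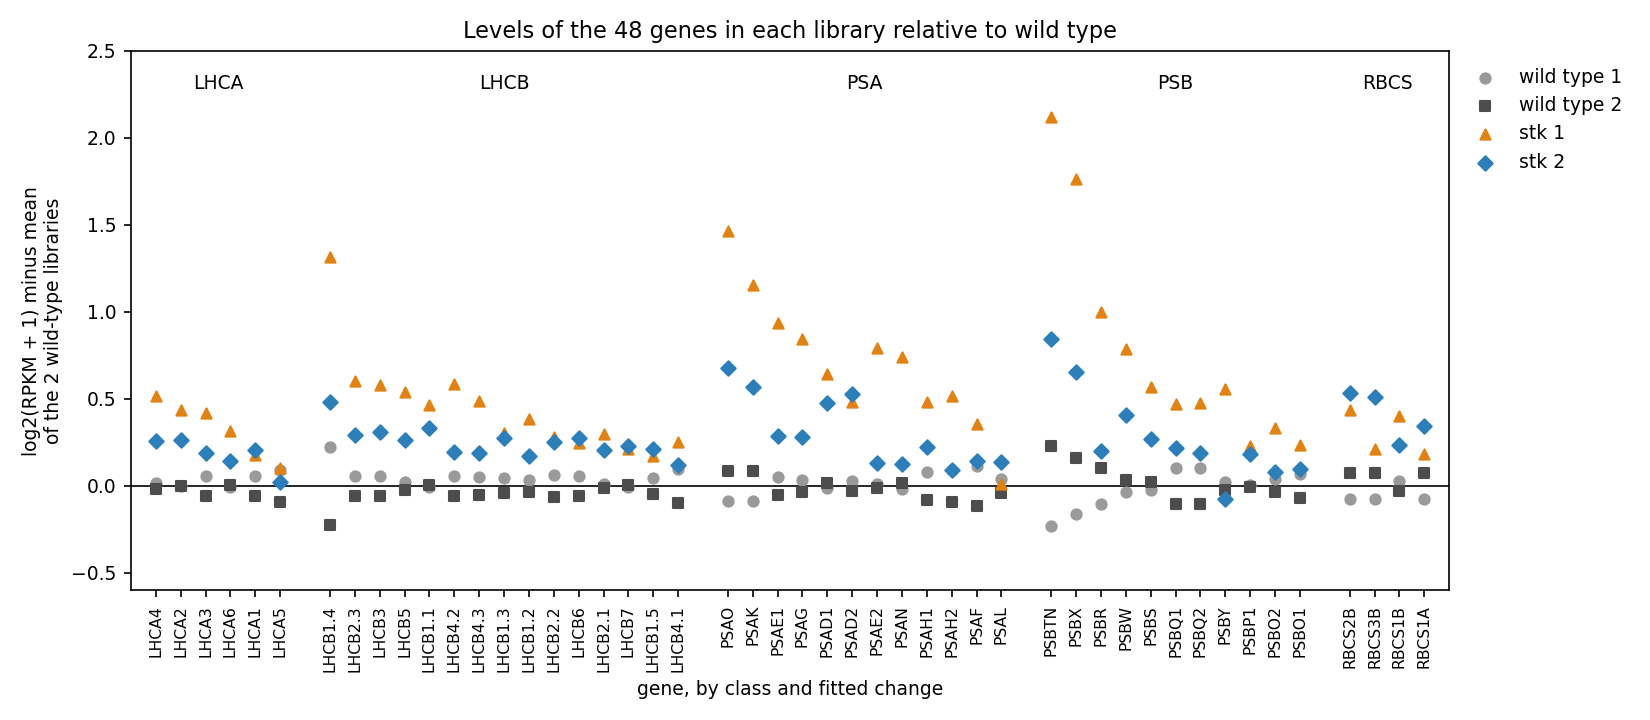
Each of the 48 genes is placed along the horizontal axis by class and fitted change, and the vertical axis gives log2(RPKM + 1) in each of the 4 libraries minus the mean of the 2 wild-type libraries. Nearly all points of both *stk* libraries lie above the wild-type points, with 44 genes showing no overlap, and *stk* replicate 1 stands farthest above *stk* replicate 2 for *PSBTN*, *PSBX*, *LHCB1.4*, *PSBR* and *PSAO*.

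None of these differences passed the test across all loci. With limma and Benjamini-Hochberg adjustment, 0 of the 48 members and 0 of 19044 loci (0.00%) had an adjusted p under 0.05, and the lowest adjusted p among the members was 0.486, for *PSAD1*. At an unadjusted p under 0.05, 18 members were higher in *stk*, against 5.66% of all loci, and 0 were lower, against 3.53% of all loci. When every library was scaled to the same summed RPKM, 17 members reached that threshold. The numbers of all loci called higher and lower went from 1077 and 672 to 1180 and 1604. Baggerley's test is named in the study's methods, and a version of it was run here on shares of summed RPKM. It gave 10 members higher at an unadjusted p under 0.05, beside 26 higher and 4 lower among all loci, and 0 after adjustment. Its counts are not those of the study's own run. The study's methods name an unadjusted p under 0.05 with means differing at least 2-fold. On the limma values this was met, higher in *stk*, by 3 members (*PSBTN*, *PSBX* and *PSAO*) and by 3.10% of loci. Lower in *stk*, it was met by 0 members and by 62 loci. With 1 library left out, the median log2 fold change of the members also moved. It was 0.39 without wild-type replicate 1, 0.31 without wild-type replicate 2, 0.23 without *stk* replicate 1 and 0.47 without *stk* replicate 2. The same medians over all loci were 0.015, -0.10, -0.11 and 0.011. Such a fit leaves 1 library in a group, so the genes it calls, which varied widely in number, are not counted.

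All classes shared the direction, and their summed levels were between 1.23-fold and 1.38-fold higher in *stk*. The 4 RBCS genes summed to 14810.0 and 16311 RPKM in wild type against 18284 and 20852 RPKM in *stk*, 1.26-fold higher by the means. LHCB genes, the largest class, summed to 25207 and 23822 RPKM and to 31202 and 29106 RPKM, 1.23-fold higher. For LHCA genes the sums were 5947 and 5655 RPKM in wild type against 7501 and 6784 RPKM in *stk*, again 1.23-fold higher. Both photosystem classes showed a wider gap between the 2 *stk* libraries: PSA genes summed to 7717 and 7374 RPKM and then to 11653 and 9230 RPKM, and PSB genes to 7644 and 7602 RPKM and then to 11911 and 8903 RPKM. Against *stk* replicate 2 alone the ratio to the wild-type mean was 1.17 for LHCA, 1.19 for LHCB, 1.22 for PSA, 1.17 for PSB and 1.34 for RBCS. Of the 100 loci with the highest mean level over the 4 libraries, 35 were members.

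**Figure D2:**
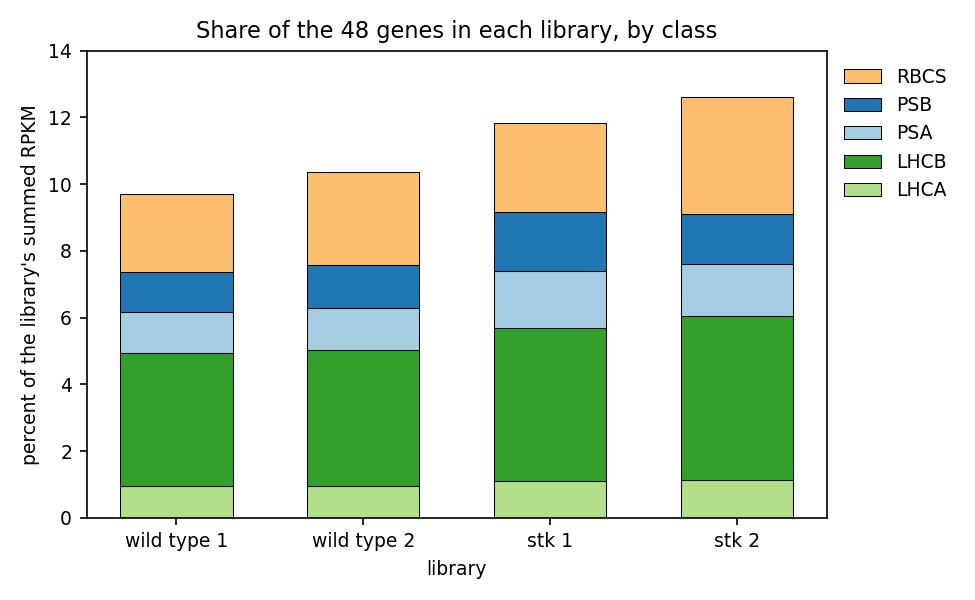
Stacked bars give the percent of each library's summed RPKM held by the LHCA, LHCB, PSA, PSB and RBCS genes, for the 2 wild-type and 2 *stk* libraries. The whole bars reach 9.72% and 10.4% in wild type against 11.8% and 12.6% in *stk*, and LHCB and RBCS make up most of each bar.

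Rubisco small subunits form the enzyme together with the plastid-encoded large subunit. *RBCS1A* (AT1G67090) was the most abundant of all members, at 7319 and 8095 RPKM in wild type against 8731 and 9785 RPKM in the mutant, with a log2 fold change of 0.26 ± 0.15 (SE, n = 2 per group; adjusted p = 0.623). *RBCS3B* (AT5G38410) was next, at 5103 and 5658 RPKM in wild type against 6229 and 7664 RPKM in the mutant (0.36 ± 0.16; adjusted p = 0.576). In both genes *stk* replicate 2 was the highest library and the groups did not overlap. *RBCS2B* (AT5G38420) stood at 1735 and 1931 RPKM in wild type against 2480.1 and 2649 RPKM in the mutant and had the largest difference of the 4, 0.49 ± 0.14 (adjusted p = 0.513). The least abundant was *RBCS1B* (AT5G38430), at 653 and 626 RPKM in wild type against 844 and 754 RPKM in the mutant (0.32 ± 0.14; adjusted p = 0.567). For these 4 genes the median log2 fold change was 0.34 with all libraries and 0.43 without *stk* replicate 1, whereas that of the other classes was lower without this library.

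*RBCS1A* lies on chromosome 1 and the other RBCS genes lie beside each other on chromosome 5 (*RBCS3B* at chr5:15377173-15378416, *RBCS2B* at chr5:15380945-15382035 and *RBCS1B* at chr5:15384117-15385247, TAIR10). Their coding sequences are so alike that reads of 50 bases cannot always be assigned. *RBCS1B* and *RBCS2B* were 97.3% identical over the coding sequence, *RBCS1A* and *RBCS1B* 89.9%, and 31.4% of the 50-base words of the *RBCS1B* transcript also occurred in another locus, against 1.84% for *RBCS1A*. The first 60 coding bases (positions 1 to 60 of each coding sequence, TAIR10.1) show what separates them; capitals mark bases that differ from *RBCS3B*, of which there were 4, 3 and 8.
RBCS3B: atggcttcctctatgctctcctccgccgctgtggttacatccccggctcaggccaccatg
RBCS2B: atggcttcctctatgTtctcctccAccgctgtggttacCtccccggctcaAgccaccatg
RBCS1B: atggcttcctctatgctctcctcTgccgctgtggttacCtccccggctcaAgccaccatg
RBCS1A: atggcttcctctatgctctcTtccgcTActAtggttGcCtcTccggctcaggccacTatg

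Paralog shares do not depend on library scaling, and the methods describe that reads with several matches were divided in proportion to the unique reads. Of the family's summed RPKM, *RBCS1A* held 49.4% and 49.6% in wild type against 47.8% and 46.9% in the mutant, and *RBCS2B* held 11.7% and 11.8% in wild type against 13.6% and 12.7% in the mutant. In both cases the groups did not overlap, the first being lower and the second higher in *stk*. *RBCS3B* held 34.5% and 34.7% in wild type against 34.1% and 36.8% in the mutant, and *RBCS1B* held 4.41% and 3.84% in wild type against 4.62% and 3.62% in the mutant, with overlap in each. With 2 libraries in each group an exact permutation test cannot go below p = 0.33, which is its p for any groups that do not overlap, so the shares are a description. Over the paralog families LHCB1, LHCB2, LHCB4, PSAD, PSAE, PSAH, PSBO, PSBQ and RBCS, 12 genes had shares without overlap. Without any difference between the groups, a gene would show no overlap at a rate of 0.33. Shares within a family are also tied to each other, so that both genes of a pair count together. The 12 are therefore not read as a result.

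**Figure D3:**
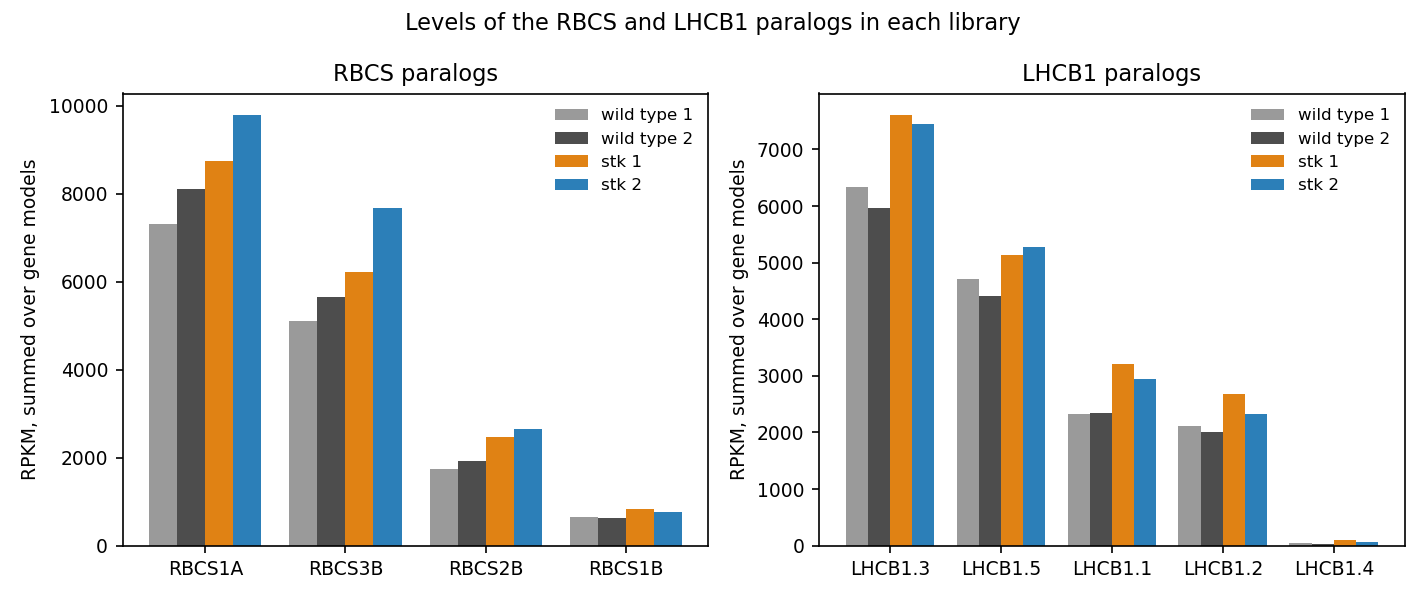
Bars give the RPKM, summed over gene models, of the 4 RBCS genes (left) and the 5 LHCB1 genes (right) in the 2 wild-type and 2 *stk* libraries. In every one of these genes both *stk* bars are higher than both wild-type bars (after quantile normalization *LHCB1.2* turned negative), and the order of the paralogs is the same in all 4 libraries.

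The antenna of photosystem II is built from trimers of the LHCB1, LHCB2 and *LHCB3* proteins, linked to the core by the single proteins LHCB4 (CP29), *LHCB5* (CP26) and *LHCB6* (CP24). For all 15 LHCB genes the mutant values exceeded the wild-type values without overlap, as in 16.3% of loci. Of the 15, 5 were higher at an unadjusted p under 0.05, against 5.66% of loci. *LHCB1.3* (AT1G29930), the most abundant, was at 6339 and 5972 RPKM in wild type against 7609 and 7454 RPKM in the mutant (0.29 ± 0.13; adjusted p = 0.577). *LHCB1.5* (AT2G34420) followed at 4713 and 4419.6 RPKM in wild type against 5139.5 and 5279.6 RPKM in the mutant (0.19 ± 0.13), and *LHCB1.2* stood at 2107 and 2014 RPKM in wild type against 2686 and 2319.9 RPKM in the mutant (0.28 ± 0.15). *LHCB1.1* (AT1G29920) had the largest difference among the abundant LHCB1 genes, with 2318 and 2337 RPKM in wild type against 3218 and 2936 RPKM in the mutant (0.40 ± 0.14; adjusted p = 0.514). Without *stk* replicate 1 these 4 differences were 0.28, 0.21, 0.17 and 0.33.

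*LHCB1.4* (AT2G34430) was far less abundant than its paralogs. It was at 49.7 and 36.2 RPKM in wild type against 107 and 59.6 RPKM in the mutant, a log2 fold change of 0.90 ± 0.31 (adjusted p = 0.514), the largest of the LHCB class, and 0.48 without *stk* replicate 1. Exact Poisson 95% intervals, which cover counting error only, were 46.4 to 53.2, 33.6 to 38.8, 103 to 111 and 57.0 to 62.2 RPKM in the same order, so the libraries within each group differed by more than counting error. The gene lies next to *LHCB1.5* on chromosome 2 (chr2:14524756-14525763 and chr2:14522524-14523568), its coding sequence is 91.4% identical to that of *LHCB1.5*, and 18.0% of its 50-base words were shared with another locus. Over the first 60 coding bases, with capitals for differences from *LHCB1.3*, the family reads as follows, and 5, 5, 9 and 8 bases differ.
LHCB1.3: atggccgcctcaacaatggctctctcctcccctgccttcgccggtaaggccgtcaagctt
LHCB1.1: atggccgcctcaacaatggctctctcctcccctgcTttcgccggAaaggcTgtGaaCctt
LHCB1.2: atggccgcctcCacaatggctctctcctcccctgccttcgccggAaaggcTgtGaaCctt
LHCB1.5: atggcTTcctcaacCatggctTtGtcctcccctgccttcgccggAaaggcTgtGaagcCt
LHCB1.4: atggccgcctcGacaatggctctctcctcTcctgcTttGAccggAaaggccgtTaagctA

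The shares of the LHCB1 genes in their family overlapped between the groups in 2 genes and not in the other 3. *LHCB1.3* held 40.8% and 40.4% in wild type against 40.6% and 41.3% in the mutant, and *LHCB1.2* held 13.6% and 13.6% in wild type against 14.3% and 12.8% in the mutant, both with overlap. *LHCB1.5* held 30.4% and 29.9% in wild type against 27.4% and 29.2% in the mutant and *LHCB1.1* held 14.9% and 15.8% in wild type against 17.2% and 16.3% in the mutant, both with no overlap but in opposite directions. *LHCB1.4* held 0.32% and 0.245% in wild type against 0.571% and 0.33% in the mutant, higher in *stk* without overlap.

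Of the LHCB2 genes, *LHCB2.1* (1514 and 1491 RPKM in wild type against 1844 and 1732 RPKM in the mutant) and *LHCB2.2* (1362 and 1251 RPKM in wild type against 1589 and 1555 RPKM in the mutant) were alike in level and in difference, with log2 fold changes of 0.25 and 0.27. Because 30.4% of the 50-base words of *LHCB2.2* were shared, their separate values are uncertain. *LHCB2.3* (AT3G27690), which had no shared word, was at 339.8 and 314 RPKM in wild type against 497 and 401 RPKM in the mutant (0.45 ± 0.16; adjusted p = 0.515), and its share of the family was 10.6% and 10.3% in wild type against 12.6% and 10.9% in the mutant. *LHCB3* (AT5G54270) stood at 1595 and 1471 RPKM in wild type against 2290.2 and 1901 RPKM in the mutant (0.45 ± 0.16; adjusted p = 0.514), although 131 of its 50-base words also lie in an overlapping neighbour. Leaving out *stk* replicate 1, the values were 0.20 for *LHCB2.1*, 0.25 for *LHCB2.2*, 0.30 for *LHCB2.3* and 0.31 for *LHCB3*. In each of these genes *stk* replicate 1 was the highest library and *stk* replicate 2 lay between it and wild type.

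Among the single antenna proteins, *LHCB4.1* (AT5G01530) had the smallest difference of the class, at 1225 and 1073 RPKM in wild type against 1369 and 1246 RPKM in the mutant (0.19 ± 0.15; adjusted p = 0.724). *LHCB4.2* (600.5 and 553 RPKM in wild type against 866 and 661 RPKM in the mutant) and *LHCB4.3* (135 and 126 RPKM in wild type against 183 and 148 RPKM in the mutant) had log2 fold changes of 0.39 and 0.34. Within lane 1 the LHCB4 genes were at 0.12, 0.20 and 0.19. The share of *LHCB4.1* in the LHCB4 family was 62.5% and 61.2% in wild type against 56.6% and 60.6% in the mutant, and that of *LHCB4.2* was 30.6% and 31.6% in wild type against 35.8% and 32.1% in the mutant, each without overlap between the groups. *LHCB7* (AT1G76570), a rare LHCB-related protein, had the lowest level of all members, 5.42 and 5.49 RPKM in wild type against 6.48 and 6.56 RPKM in the mutant (0.22 ± 0.13; adjusted p = 0.645). The Poisson interval of its wild-type replicate 1, 4.39 to 6.61 RPKM, reached past the values of both *stk* libraries. *LHCB5* and *LHCB6* had log2 fold changes of 0.40 and 0.26 (0.26 and 0.28 without *stk* replicate 1).

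LHCA proteins form the antenna belt of photosystem I, where *LHCA1* to *LHCA4* are the standard members and *LHCA5* and *LHCA6* are minor ones that help attach the NADH dehydrogenase-like complex. *LHCA1* (AT3G54890) had the highest level, 1981 and 1828 RPKM in wild type against 2152 and 2199.7 RPKM in the mutant (0.19 ± 0.13; adjusted p = 0.688; the sign turned under quantile normalization). *LHCA4* (AT3G47470) had the largest difference, with 1619 and 1583 RPKM in wild type against 2288 and 1918 RPKM in the mutant (0.39 ± 0.15; adjusted p = 0.532). *LHCA6* (AT1G19150), the least abundant, was at 56.1 and 56.4 RPKM in wild type against 70.2 and 62.2 RPKM in the mutant (0.23 ± 0.14). *LHCA5* (AT1G45474) showed the smallest difference of all 48 members, 77 and 67.8 RPKM in wild type against 77.6 and 73.5 RPKM in the mutant (0.06 ± 0.14; adjusted p = 0.908). Its groups overlapped, and its sign turned with the most abundant gene model, with Baggerley's test and without wild-type replicate 2. *LHCA2* and *LHCA3* had log2 fold changes of 0.35 and 0.30. Within lane 1 the values of *LHCA1* to *LHCA6* were 0.21, 0.27, 0.19, 0.26, 0.025 and 0.14. In 5 of the 6 genes both mutant values exceeded both wild-type values, as in 16.3% of loci.

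In photosystem I, the stromal subunits PSAD and PSAE form the docking site of ferredoxin. The lowest p-values of the 48 members were those of both PSAD genes and of *PSAO* and *PSAK*. *PSAD1* (AT4G02770) was at 884 and 902 RPKM in wild type against 1393 and 1243 RPKM in the mutant (0.56 ± 0.14; adjusted p = 0.486) and *PSAD2* (AT1G03130) at 510.0 and 488 RPKM in wild type against 699 and 720.0 RPKM in the mutant (0.51 ± 0.13; adjusted p = 0.499). For these paralogs both *stk* libraries were close to each other and above wild type. The differences without *stk* replicate 1 were 0.48 and 0.53, and no 50-base word was shared between the genes. *PSAE1* had 433 and 404 RPKM in wild type against 802 and 510.3 RPKM in the mutant (0.61) and *PSAE2*, the least abundant PSA gene, had 180.3 and 178 RPKM in wild type against 311 and 196 RPKM in the mutant (0.46). Without *stk* replicate 1 these were 0.29 and 0.13. The *PSAE1* share of its pair was 70.6% and 69.5% in wild type against 72.1% and 72.2% in the mutant, higher in *stk* without overlap, whereas the *PSAD1* share, 63.4% and 64.9% in wild type against 66.6% and 63.3% in the mutant, overlapped.

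*PSAO*, *PSAL* and PSAH lie at the side of photosystem I where light-harvesting complex II can dock, and *PSAG* and *PSAK* flank the antenna belt. *PSAO* (AT1G08380) was at 461 and 519 RPKM in wild type against 1353 and 782 RPKM in the mutant (1.07 ± 0.27; adjusted p = 0.493), 2.18-fold by the means. *PSAK* (AT1G30380) was at 286 and 322 RPKM in wild type against 676 and 451 RPKM in the mutant (0.86 ± 0.22; adjusted p = 0.493). In both, *stk* replicate 1 was highest, but *stk* replicate 2 also exceeded both wild-type libraries, with differences of 0.68 and 0.57 without *stk* replicate 1. *PSAL* (AT4G12800), the most abundant PSA gene, had the smallest difference of the class, 1409 and 1337 RPKM in wild type against 1385 and 1509 RPKM in the mutant (0.07 ± 0.14; adjusted p = 0.882; negative under quantile normalization), and its groups overlapped. *PSAH1* (416 and 371 RPKM in wild type against 550.3 and 458 RPKM in the mutant) and *PSAH2* (464 and 408 RPKM in wild type against 623 and 464 RPKM in the mutant) had nearly equal shares of their pair, *PSAH1* holding 47.3% and 47.6% in wild type against 46.9% and 49.7% in the mutant, and 35.2% of the 50-base words of *PSAH1* lie in an overlapping neighbour. Their log2 fold changes were 0.35 and 0.30, and 0.22 and 0.091 without *stk* replicate 1. *PSAG*, *PSAN* and *PSAF* (the last a docking site of plastocyanin, as is *PSAN*) had log2 fold changes of 0.56, 0.43 and 0.25, which were 0.28, 0.13 and 0.14 without *stk* replicate 1.

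Photosystem II carries the oxygen-evolving proteins PSBO, PSBP and PSBQ on its lumenal side. *PSBO1* (AT5G66570), the most abundant PSB gene, was at 1619 and 1472 RPKM in wild type against 1818 and 1651 RPKM in the mutant (0.17 ± 0.14; adjusted p = 0.742; negative under quantile normalization), the smallest difference of the class. *PSBO2* stood at 406 and 386 RPKM in wild type against 499 and 418 RPKM in the mutant (0.21), and of the pair *PSBO1* held 79.9% and 79.2% in wild type against 78.5% and 79.8% in the mutant. *PSBQ1* (631 and 548 RPKM in wild type against 814 and 684 RPKM in the mutant) and *PSBQ2* (563 and 489 RPKM in wild type against 730.5 and 598 RPKM in the mutant) had differences of 0.34 and 0.33, and the *PSBQ1* share was 52.9% and 52.9% in wild type against 52.7% and 53.4% in the mutant. Shares in both pairs overlapped between the groups. *PSBP1* had a log2 fold change of 0.21. Within lane 1 the values were 0.10 for *PSBO1*, 0.077 for *PSBO2*, 0.22 for *PSBQ1*, 0.19 for *PSBQ2* and 0.18 for *PSBP1*.

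Several small photosystem II subunits had larger log2 fold changes. *PSBTN* (AT3G21055), which encodes a small lumenal subunit, had the largest difference of all members, 136 and 187 RPKM in wild type against 696 and 287 RPKM in the mutant (1.48 ± 0.43; adjusted p = 0.513; 3.04-fold by the means). *PSBX* (AT2G06520), which encodes a small membrane-spanning subunit, followed with 323 and 403 RPKM in wild type against 1226 and 567 RPKM in the mutant (1.21 ± 0.37; adjusted p = 0.514; 2.47-fold by the means). In both genes *stk* replicate 1 was by far the highest library and *stk* replicate 2 exceeded both wild-type libraries. Without *stk* replicate 1 the differences were 0.84 and 0.65. *PSBW* (AT2G30570), needed for stable supercomplexes of photosystem II with its antenna, was at 618 and 649.6 RPKM in wild type against 1094 and 840.0 RPKM in the mutant (0.60 ± 0.17; adjusted p = 0.513; 0.41 without *stk* replicate 1). *PSBS*, which triggers the release of excess light energy as heat, had a log2 fold change of 0.42, *PSBR* one of 0.60 and *PSBY* one of 0.24. Without *stk* replicate 1 these became 0.27, 0.20 and -0.078.

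Of the 5 genes with the largest differences, 4 have short transcripts. Exons summed to 552 bases in *PSBTN*, 630 in *PSBX*, 703 in *PSAO* and 755 in *PSAK* but 1008 in *LHCB1.4*, against a median of 1007.5 bases over the members and 1497 over all loci tested. *PSAE2* (607 bases), *PSAH2* (664) and *PSAH1* (665) are as short and had log2 fold changes of 0.46, 0.30 and 0.35. Across all loci in *stk* replicate 1, the median difference from wild type was 1.29 for exon lengths under 600 bases and -0.14 at 2000 bases and above. In *stk* replicate 2 the same medians were 0.33 and -0.12. Across the 48 members the log2 fold change followed the log2 exon length with a Pearson r of -0.65 and a Spearman rho of -0.56, and without *stk* replicate 1 with -0.44 and -0.31 (a description over genes of the same libraries). The 11 members with exons under 800 bases had a median log2 fold change of 0.60, and the other 37 had 0.30; without *stk* replicate 1 the medians were 0.28 and 0.23.

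In each of the 6 length classes that hold members, the median difference of the members was above that of all loci in both *stk* libraries. For the 1917 loci with 800 to 1000 bases the median difference was 0.18 in *stk* replicate 1 and -0.12 in *stk* replicate 2, against 0.45 and 0.27 for the 12 members of that length. For 1000 to 1200 bases, which holds 20 members, the medians of all loci were 0.11 and -0.11 and those of the members 0.35 and 0.22. With each library's trend against exon length removed, the median log2 fold change was 0.29 over the members and -0.01 over all loci, and 47 members and 48.3% of loci were positive. In that fit 23 members had an unadjusted p under 0.05 and a higher level in *stk*, against 6.96% of loci, with 0 members past the adjusted threshold. The difference was then 0.93 for *PSBTN*, 0.80 for *PSBX*, 0.79 for *PSAO*, 0.66 for *PSAK* and 0.88 for *LHCB1.4*. It was 0.33 for *PSAE1*, 0.35 for *PSBR*, 0.24 for *PSAN*, 0.015 for *PSAE2* and 0.011 for *PSAH1*, and *PSAH2* was negative at -0.041.

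**Figure D4:**
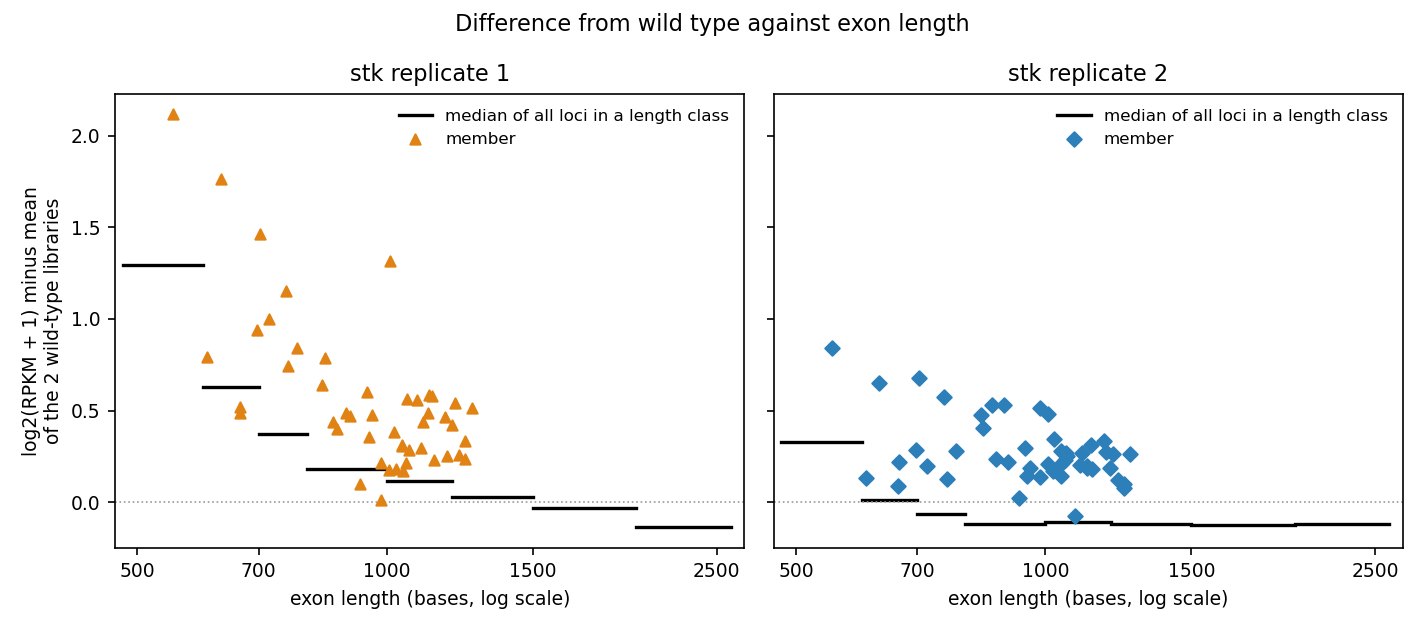
Horizontal axes give exon length in bases on a log scale and vertical axes log2(RPKM + 1) minus the mean of the 2 wild-type libraries, for *stk* replicate 1 (left) and *stk* replicate 2 (right); points are the 48 members and black lines the medians of all loci tested in each length class, the longest class being cut at the edge of the plot. The lines climb to 1.29 and 0.33 for the shortest transcripts, and most members lie above the line of their class in both libraries.

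Nuclear photosynthesis genes are known to share promoter elements, among them the G-box (CACGTG) and the I-box (GATAAG), and upstream windows of 250 bases before the 5′ end of each deposited gene model were searched for both on either strand. An I-box was present in 27 of the 48 windows (56.2%) and in 13.1% of 18975 windows of all tested loci. A G-box was present in 23 windows (47.9%) and in 9.08% of all. The TATA box string (TATAAA, gene strand only, at any position in the window) had a match in 14 windows (29.2%) and in 32.3% of all. Such a match need not be a working TATA box. The CArG box, the element bound by MADS-domain proteins, had 0 matches in the 48 windows and matches in 2.93% of all. It was searched on both strands in its strict form, a run of A or T between a pair of C and a pair of G. In windows of 1000 bases the numbers were 3 of 48 (6.25%) and 7.81%. The study's own search covered longer regions and allowed a mismatch, so these matches cannot be set beside its sites. Members with an I-box had a median log2 fold change of 0.33 and those without one 0.40, and for the G-box these were 0.34 and 0.39.

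Upstream windows of the most abundant member and of the 3 with the largest differences show how unlike these promoters are. Each is written 5′ to 3′ on the strand of the gene, the minus strand in all 4 (TAIR10.1; *RBCS1A* chr1:25049425-25049674, *PSBTN* chr3:7377187-7377436, *PSBX* chr2:2588359-2588608, *PSAO* chr1:2641829-2642078), with I-box, G-box and TATA box letters in capitals, those of an I-box on the other strand included.
RBCS1A: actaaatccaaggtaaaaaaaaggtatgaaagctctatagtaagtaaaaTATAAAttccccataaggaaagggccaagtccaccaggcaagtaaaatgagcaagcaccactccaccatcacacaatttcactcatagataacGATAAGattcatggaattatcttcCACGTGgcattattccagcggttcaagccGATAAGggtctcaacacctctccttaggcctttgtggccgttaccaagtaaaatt
PSBTN: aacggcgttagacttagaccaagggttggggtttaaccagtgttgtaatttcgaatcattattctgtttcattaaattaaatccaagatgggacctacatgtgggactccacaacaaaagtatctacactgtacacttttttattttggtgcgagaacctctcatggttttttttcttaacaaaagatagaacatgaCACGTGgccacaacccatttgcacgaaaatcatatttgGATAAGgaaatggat
PSBX: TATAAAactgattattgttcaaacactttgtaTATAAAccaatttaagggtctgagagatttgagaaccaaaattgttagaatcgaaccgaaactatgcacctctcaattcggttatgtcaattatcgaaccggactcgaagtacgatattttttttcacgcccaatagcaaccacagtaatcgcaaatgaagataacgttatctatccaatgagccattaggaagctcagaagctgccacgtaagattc
PSAO: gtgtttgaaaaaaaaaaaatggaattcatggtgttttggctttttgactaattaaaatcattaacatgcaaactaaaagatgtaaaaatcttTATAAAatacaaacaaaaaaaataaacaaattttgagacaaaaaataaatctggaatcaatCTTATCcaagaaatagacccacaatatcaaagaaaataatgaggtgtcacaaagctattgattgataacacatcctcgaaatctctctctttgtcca

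*RBCS1A* has a G-box between a pair of I-boxes, *PSBTN* has both elements once, and *PSAO* has an I-box on the other strand. *PSBX* has neither element and a TATAAA match at each of 2 places, both in the part of its window far from the gene, although its log2 fold change of 1.21 was second only to that of *PSBTN*.

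Other nuclear genes of photosynthesis had smaller median differences before the trend with exon length was removed. The 14 Calvin cycle genes, for enzymes of the cycle other than Rubisco and for its activase *RCA*, had log2 fold changes from 0.03 to 0.30 with a median of 0.21 (0.09 under quantile normalization and 0.14 with equal summed RPKM), and 0 had an unadjusted p under 0.05. Their median exon length was 1554.5 bases. With the exon length trend removed their median was 0.26, close to the 0.29 of the antenna, photosystem and Rubisco genes. In that fit 7 of the 14 were higher at an unadjusted p under 0.05, against 6.96% of loci, and 0 passed after adjustment. Of 12 genes for electron carriers and ATP synthase subunits the median was 0.20 (0.10 without *stk* replicate 1), and 1 was higher at an unadjusted p under 0.05: *PETM*, a small subunit of the cytochrome b6f complex, at 160.0 and 179 RPKM in wild type against 509.9 and 232 RPKM in the mutant (1.02 ± 0.37; adjusted p = 0.514). Its exons sum to 557 bases, and its difference was 0.45 without *stk* replicate 1. The 14 chlorophyll synthesis genes had a median of 0.08, with 0 at an unadjusted p under 0.05 and 10 positive. Their median lay between 0.037 and 0.17 with 1 library left out. With the length trend removed it was 0.17, with all 14 positive and 4 higher at an unadjusted p under 0.05. Over all 6 related lists the genes at that threshold went from 3 to 17 when the trend was removed, 16 of them higher in *stk* and 1 lower, against 6.29% of loci lower.

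Among the regulators of these genes, *GLK1*, a transcription factor that activates antenna and chlorophyll genes, was at 33.2 and 28.3 RPKM in wild type against 36 and 31 RPKM in the mutant (0.12 ± 0.16; adjusted p = 0.824), and its partner *GLK2* at 23.9 and 21.8 RPKM in wild type against 30.9 and 25.2 RPKM in the mutant (0.28 ± 0.16; adjusted p = 0.636). Within lane 1 their differences were 0.015 and 0.14. The groups overlapped for *GLK1* and not for *GLK2*, and 0 of the 6 regulators had an unadjusted p under 0.05. Of 5 light-stress genes, 1 had an unadjusted p under 0.05: *OHP1*, encoding a single-helix relative of the antenna proteins, with 18.2 and 32.3 RPKM in wild type against 111 and 40.6 RPKM in the mutant (1.44 ± 0.51; adjusted p = 0.514) and exons of 526 bases. Its difference was 0.72 without *stk* replicate 1 and 0.83 with the length trend removed. The median of these 5 genes was 0.093, and -0.10 without *stk* replicate 1. The 8 clock genes tested were all negative, with a median of -0.16 (-0.14 under quantile normalization). In 7 of them both mutant values were below both wild-type values, as in 26.8% of loci, and 1 had an unadjusted p under 0.05. This was *PRR5*, a clock repressor, at 3 and 2.82 RPKM in wild type against 1.94 and 1.63 RPKM in the mutant (-0.49 ± 0.14; adjusted p = 0.513). With the exon length trend removed, 2 of the 8 turned positive and the median was -0.06.

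Tissue markers also differed between libraries. The 6 tapetum markers summed to 363 and 172 RPKM in wild type against 268 and 170.2 RPKM in *stk*, and the 4 pollen markers to 1705 and 1186 RPKM and to 1100.5 and 1052 RPKM. Most of the pollen sum came from *GRP17*, at 1299 and 832 RPKM in wild type against 737 and 728 RPKM in *stk*. The log2 fold changes were -0.50 for *GRP17*, -0.20 for *VGD1*, -0.019 for *PPME1* and 0.31 for *MGH3*. Summed levels of the 5 seed coat markers were 54.9 and 58.6 RPKM in wild type against 106 and 122 RPKM in *stk*. All 5 log2 fold changes were positive, as were those of 40.2% of loci. Of the 5, 3 were higher at an unadjusted p under 0.05, against 5.66% of loci. These were *TT12* (1.11), *BAN* (36.9 and 39.8 RPKM in wild type against 77.4 and 89.8 RPKM in the mutant) and *MYB5* (0.49). The study reports binding of STK at *BAN* and describes STK as a repressor of this gene. It also lists a transporter gene of the same pathway as raised in *stk*. The levels of *BAN* and of that transporter gene, *TT12*, are therefore not a measure of seed coat content alone, which was not tested. The 5 floral organ markers summed to 458 and 403 RPKM in wild type against 564 and 417 RPKM in *stk*, *SEP3* being the 1 of them with an unadjusted p under 0.05 (0.79). The other 4 had negative log2 fold changes (-0.28 for *AP1*, -0.12 for *AP3*, -0.31 for *PI* and -0.10 for *AG*), so the higher sum in *stk* came from *SEP3* alone. The 4 carpel and silique markers summed to 78.3 and 88.5 RPKM in wild type against 103 and 88.4 RPKM in *stk*, with 0 at that threshold. Of 6 embryo and endosperm markers 2 could be tested: *PHE1*, higher at an unadjusted p under 0.05 (0.78), and *AGL62* (0.54). The rest had a mean under 1 RPKM and did not share this direction. Among them *LEC1* was lower, at 1.01 and 0.66 RPKM in wild type against 0.07 and 0.35 RPKM in the mutant, and in *FIS2*, *MEA* and *WOX2* the groups overlapped. The part of these differences in the levels of the photosynthesis genes was not tested.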

How the data were processed

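RNA-Seq libraries of wild-type and *stk* inflorescences and siliques (TruSeq, 50-base single reads) were mapped by the authors to TAIR10 with CLC Genomics Workbench, which divides reads with several matches among loci. The authors deposited RPKM values per gene model and library, scaled to total reads and not further normalized; tables of enriched GO terms were not used. RPKM values were summed per locus and tested as log2(RPKM + 1) with limma 3.58.1 (lmFit, eBayes; R 4.3.3) on loci with a mean of at least 1 RPKM, with Benjamini-Hochberg adjustment over 19044 loci. A fold change on this scale understates differences of low genes. The members and gene lists were chosen with earlier results of these data known. Read totals were estimated from low RPKM values, of which 99.1% to 99.5% came out whole within 0.02.

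Exon lengths and sequence came from TAIR10.1, whose nuclear coordinates are those of TAIR10; 26.2% of models have identical ends, so lengths are approximate. Alternatives covered quantile normalization, a pseudocount of 0.1, other filters, limma with trend, the most abundant gene model, a replicate block, removal of the exon length trend, Baggerley's test on shares of summed RPKM, and leaving out each library. Scaling to equal summed RPKM and a block with crossed numbers were added after the data were seen. The procedures were tested on simulated data. Genes are named where they have one of the 12 lowest unadjusted p-values under 0.05, an extreme level or fold change in their class, or belong to a paralog family; of related lists, *GLK1*, *GLK2* and at most 4 genes with an unadjusted p under 0.05 are named.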

Additional observations from a re-analysis of the deposited data

How the results depend on the processing

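The absence of members past the adjusted threshold held with quantile normalization, both filters, limma with trend, a pseudocount of 0.1, the most abundant gene model, the replicate block, removal of the exon length trend, equal summed RPKM and Baggerley's test, whereas leaving out 1 library gave between 0 and 11 members, between 0 and 1575 loci and between 0 and 2 genes of the related lists. The number of all loci past that threshold was 5 with quantile normalization, 1 with limma trend, 4 with the exon length trend removed and 5 with equal summed RPKM. Members at an unadjusted p under 0.05 numbered 10 with limma trend, 10 with Baggerley's test and between 2 and 24 with 1 library left out. The median log2 fold change of the members moved to 0.20 with quantile normalization and lay between 0.23 and 0.47 with 1 library left out. Of 672 values of single members under an alternative, 10 changed sign, none of them past the adjusted threshold on either side: with quantile normalization *LHCA1* (-0.21), *LHCB1.2* (-0.13), *LHCB4.1* (-0.023), *PSAL* (-0.10) and *PSBO1* (-0.088), for *LHCA5* the most abundant gene model (-0.22), Baggerley's test (-0.0037) and the fit without wild-type replicate 2 (-0.027, the lowest of its values with 1 library left out, the highest being 0.15), for *PSAH2* the removal of the length trend (-0.041) and for *PSBY* the fit without *stk* replicate 1 (-0.078, the others reaching 0.56). The cause of these moves was not tested.

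Libraries of the 2 groups share only a number. With the replicate block 23 members were higher at an unadjusted p under 0.05, beside 1061 higher and 1006 lower among all loci. In that fit 0 members and 0 loci passed after adjustment, and the median of the members was 0.35. The deviations of same-numbered libraries correlated at -0.127, and with crossed numbers 921 loci, 5 members and 2 genes of the related lists passed. Depth limits *LHCB7*, and 18 members share 50-base words with other loci.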
